A study of Mus musculus with 7 samples.

Results

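Spleen T cells that had lost the transcription factor Thpok were sampled 30 days after infection. Among 736 of them, 296 carried granzyme transcripts and no detected transcript of the interleukin-7 receptor. They are 40.2% of the cells of their library (95% exact binomial interval 36.7 to 43.9%) and stand among 16427 cells of 7 libraries in all. A barcode counted as a cell with 500 or more genes and at most 10% mitochondrial unique molecular identifiers (UMIs, which count transcripts). A cell was a member with 1 or more UMIs of Gzma or Gzmb and no UMI of Il7r, so the members were chosen by measured values of these 3 genes. They were set against the other 440 cells of the same library.

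The study sequenced the 3' ends of transcripts of single T cells sorted from the spleens of C57bl/6 mice that had received lymphocytic choriomeningitis virus (LCMV), Armstrong strain. The members come from the library of Ox40-Cre+ Thpok fl/fl RosaYFP+ mice at day 30, in which a Cre recombinase driven by the Ox40 promoter, active after T cells are activated, deletes the Thpok gene and switches on a yellow reporter. Cells positive for that reporter, high in the activation marker CD44 and able to bind GP66:I-Ab (the class II molecule I-Ab holding a viral peptide) were sorted, with no CD4 gate named in the labels. The same sort was made from Ox40-Cre+ Thpok fl/fl RosaYFP+ mice at day 7, and from Ox40-Cre+ Thpok wt/wt RosaYFP+ mice at day 30 and day 7, which carry the same Cre and reporter but 2 intact Thpok alleles. Wild type mice at day 7 gave a CD44high CD4+ GP66:I-Ab+ library and 2 libraries of total CD44high T cells, a 50/50 mix of separately sorted CD4+ and CD8+ cells. Each GP66+ group is 1 library, and no source used here gives the number of mice behind it.

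Thpok, encoded by Zbtb7b, directs T cells that recognise class II molecules to the helper fate and holds down genes of the CD8 cytotoxic programme. Cytotoxic T cells kill through granules that carry granzymes, proteases which enter the target cell, and they release inflammatory chemokines on contact. Effector cells that lose the interleukin-7 receptor are usually short-lived, whereas memory cells keep it as a survival signal. Helper cells can also acquire cytotoxic granules during viral infection.

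The members held 775743 UMIs and the other cells 1365813, with medians of 2062.5 and 2681 UMIs and of 956.5 and 1086 genes per cell. The median share of mitochondrial UMIs was 3.28% in members and 3.86% in other cells, and that of ribosomal protein UMIs was 23.3% and 29.6%. Zbtb7b (chromosome 3, 89377644 to 89394776, minus strand, GRCm38) had no UMI in the members, which allows up to 3.87 counts per 1000000 UMIs (CPM) for 3 counts, and 1 UMI in the other cells. It stood at 20.6 CPM in the Thpok-sufficient library of the same day. Levels are CPM of the UMIs summed over each class of cells, and a ratio carries a 95% interval that covers counting error only. Since the members and other cells come from 1 library and cells are not replicates, the differences within it have no test. A gene is called past 2-fold among the 4479 genes with 50 or more UMIs, leaving out the 3 genes of the rule.

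The rule picked cells across a wide range of granzyme content. Gzma, granzyme A (chromosome 13, 113093825 to 113100981, minus strand), stood at 2738 CPM in members and 98.1 CPM in other cells. Gzmb, granzyme B (chromosome 14, 56258838 to 56262260, minus strand), stood at 776 CPM in members and 82.0 CPM in other cells. Both levels follow from the rule and are a description. A member held a median of 6 granzyme UMIs, with quartiles of 2 and 12 and a highest value of 96. Both granzymes were seen in 138 members, Gzma alone in 76 and Gzmb alone in 82. Just inside the rule lie 65 members with a single granzyme UMI, and just outside it lie 60 granzyme-positive cells with an Il7r UMI, 37 of them with 1 such UMI. The remaining other cells were 265 with neither transcript seen and 115 with Il7r alone. Il7r stood at 220 CPM in other cells, with a UMI in 39.8% of them, so a cell without an Il7r UMI may still express it. The granzyme-positive cells with an Il7r UMI held a median of 2954.5 UMIs, against 2062.5 in members.

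Free RNA in the droplets can give a cell a UMI it did not express, and it was measured in the same library. Its 99135 droplets with at most 100 UMIs held granzyme transcripts at 1377 CPM and haemoglobin transcripts, which T cells lack, at 2112 CPM. A haemoglobin UMI was seen in 176 of 734 cells (24.0%), leaving out 2 cells with 100 or more. Granzyme UMIs scaled from those 209 haemoglobin UMIs come to 136 of the 2972 granzyme UMIs in cells, beside 91 cells with exactly 1 granzyme UMI. How far free RNA placed single cells in the class was not tested. Leaving out the cells with 1 granzyme UMI left 231 members.

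The same rule was met by 5 of 725 Thpok-sufficient cells at day 30 (0.690%, interval 0.224 to 1.60%), against 40.2% for the Thpok-deleted library. At day 7 it was met by 82.2% of 1333 Thpok-deleted, 15.5% of 2157 Thpok-sufficient and 16.1% of 2261 wild type GP66+ cells. In the total CD44high mix it was met by 48.6% of 7022 and 56.0% of 2193 cells. With every cell thinned to 1000 UMIs, which left out 4 Thpok-deleted and 11 Thpok-sufficient cells of day 30 with fewer, the shares at day 30 were 35.1% in Thpok-deleted and 0.420% in Thpok-sufficient cells, and at day 7 they were 63.3% and 8.31%. The Thpok-deleted library therefore had the higher share on either day, thinned or not. With 1 library for each genotype and day these shares have no replicate.

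**Figure D1:**
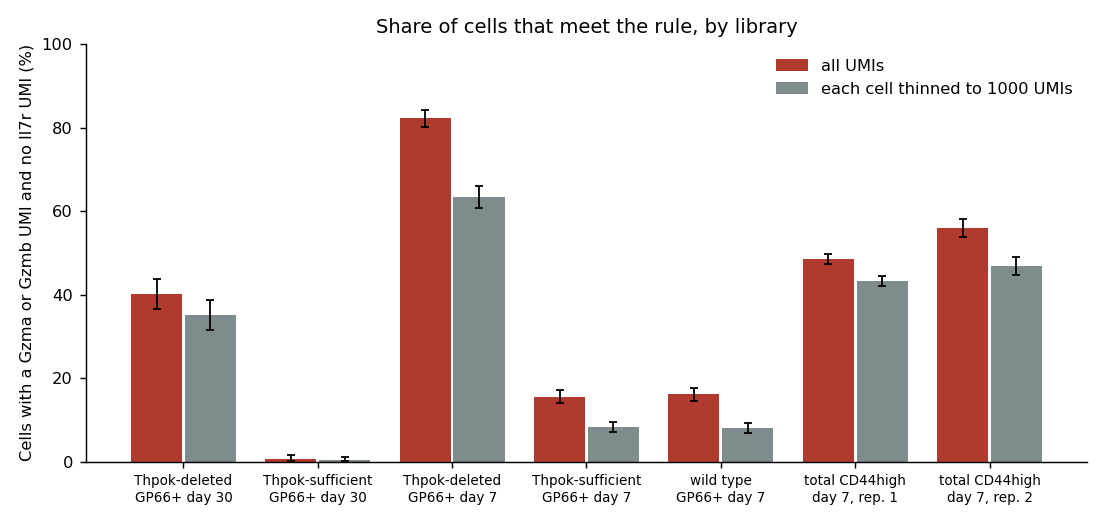
Percent of cells (y axis) with a Gzma or Gzmb UMI and no Il7r UMI in each of the 7 libraries (x axis), as red bars for all UMIs and grey bars for cells thinned to 1000 UMIs, with 95% exact binomial intervals. Thpok-deleted cells reach 40.2% at day 30 and 82.2% at day 7, and Thpok-sufficient cells 0.690% and 15.5%.

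Of the 4479 genes, 99 were 2-fold or more higher in members than in other cells (2.21%) and 80 were 2-fold or more lower (1.79%). The median log2 ratio of all 4479 genes was 0.089. Genes higher in members included the receptors Klrg1 and Cx3cr1, the chemokines Ccl3, Ccl4 and Ccl5, and the galectins Lgals1 and Lgals3. Genes lower in members included Cd81, Cd83, Marcksl1, C2cd4b, Ccr7 and Tnfsf8. These genes are examples and not a ranking.

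**Figure D2:**
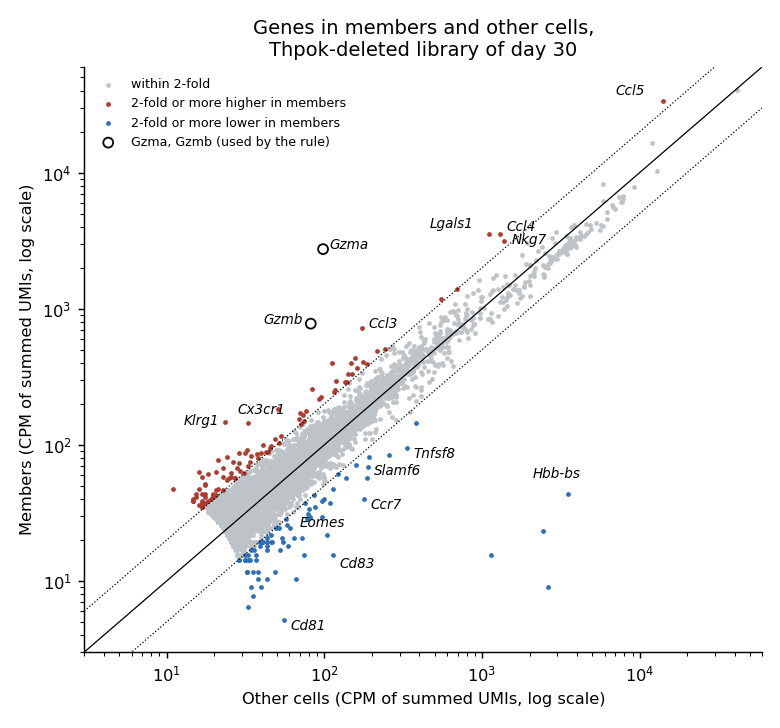
Level of each gene with 50 or more UMIs in members (y axis) against other cells (x axis), both in CPM on log scales, in the Thpok-deleted library of day 30, with equality as a solid line and 2-fold as dotted lines. Red genes lie above the upper dotted line and blue genes below the lower one, genes at 0 in a class are not drawn, and Gzma and Gzmb are circled because the rule used them.

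The chemokines Ccl3, Ccl4 and Ccl5 were higher in members, while their list as a whole was mixed. Ccl4, also called MIP-1 beta, stood at 3549 CPM in members and 1291 CPM in other cells, a ratio of 2.75 (interval 2.59 to 2.92). A Ccl4 UMI was found in 72.6% of members and 48.0% of other cells. Ccl3, its neighbour on chromosome 11, stood at 721 CPM in members and 174 CPM in other cells (ratio 4.15, interval 3.56 to 4.85). Ccl5, a chemokine of effector and memory T cells, stood at 33560 CPM in members and 14015 CPM in other cells (ratio 2.39), and it was seen in 293 of 296 members and 400 of 440 other cells. Ccl4 and Ccl5 were also present in the low-UMI droplets, at 2018 and 14247 CPM. The 14 measured genes of the chemokine and cytokine list had a median log2 ratio of -0.59, and 6 of them had a positive log2 ratio. Ccl3, Ccl4 and Ccl5 were past 2-fold higher and 4 genes were past 2-fold lower. The 4 were Tnfsf8, Xcl1, Cxcl10 and Ccl1, the last of which had no UMI in members and 87 UMIs in 4 other cells, 70 of them in a single cell. Xcl1, a chemokine for cross-presenting dendritic cells, stood at 68.3 CPM in members and 190 CPM in other cells. Ifng, the antiviral cytokine interferon gamma, stood at 458 CPM in members and 245 CPM in other cells, a ratio of 1.87 that is short of 2-fold.

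Natural killer type lectin receptors were higher in members. Of 6 measured genes of this list 5 were past 2-fold higher in members and none lower, with a median log2 ratio of 1.18. It was 5 of 6 with cells thinned to 1000 UMIs, but 3 of 6 with 1000 or more genes per cell. With members defined by a Gzmb UMI whatever their Gzma it was 2 of 6. Klrk1, the activating receptor NKG2D that recognises stress ligands, stood at 436 CPM in members and 157 CPM in other cells (ratio 2.78, interval 2.34 to 3.32). Klrd1 and Klrc1, which lie in the same gene complex, were also higher. Klrd1, the shared CD94 chain, stood at 392 and 186 CPM, and Klrc1, the inhibitory NKG2A chain, at 485 and 216 CPM in members and other cells. Klrc1 and its close copy Klrc2 share sequence, so the split of UMIs between them is uncertain.

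Klrg1, an inhibitory receptor of terminal effector cells, differed more widely. It stood at 147 CPM in members and 23.4 CPM in other cells (ratio 6.27, interval 4.21 to 9.60), with a UMI in 76 members (25.7%) and 24 other cells (5.45%). Cx3cr1, the fractalkine receptor of circulating effector cells, stood at 146 CPM in members and 32.9 CPM in other cells (ratio 4.42). Of the 38 cells with a UMI of both receptors 33 were members. S1pr5, a receptor for exit from tissue, stood at 58.0 CPM in members and 16.8 CPM in other cells (ratio 3.44). Klrg1, Cx3cr1 and S1pr5 were singled out after their values were seen.

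The granule and killing list was mixed. Of its 14 measured genes, 5 were past 2-fold higher and 1 lower, and its median log2 ratio of 0.17 was near that of all genes. Nkg7, a granule membrane protein needed for release, stood at 3120 CPM in members and 1368 CPM in other cells (ratio 2.28). Fasl, the death ligand, stood at 329 CPM in members and 149 CPM in other cells. Serpinb9 and Serpinb6b, inhibitors of granule and other proteases, stood at 329 and 290 CPM in members, against 142 and 138 CPM in other cells. Gzmk, granzyme K, was the fifth, at 143 and 71.0 CPM in members and other cells. Gzmm, granzyme M, went the other way, at 24.5 CPM in members and 60.8 CPM in other cells (ratio 0.403, interval 0.231 to 0.670). Without the condition on Il7r its log2 ratio was 0.065. Perforin (Prf1), which opens the target membrane, had too few UMIs for the gene threshold, 22 in members and 16 in other cells. Srgn, Cst7 and Lamp1, general parts of granules, were within 2-fold, with log2 ratios of -0.029, -0.22 and 0.16.

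Factors and receptors of effector cells that were past 2-fold were higher in members. Of 28 measured genes 9 were past 2-fold higher and none lower, with a median log2 ratio of 0.60. The count was 3 of 23 with cells thinned to 1000 UMIs and 6 of 28 by the mean of each cell's CPM, with none lower in either. With members defined by a Gzma UMI whatever their Gzmb, 6 of 28 were past 2-fold higher and 1 lower. Id2, which restrains E proteins and favours effector cells, stood at 1173 CPM in members and 552 CPM in other cells (ratio 2.12). Zeb2, a transcription factor of terminal effector cells, stood at 177 CPM in members and 76.9 CPM in other cells (ratio 2.30). Prdm1, the gene of the repressor Blimp1, stood at 51.6 CPM in members and 17.6 CPM in other cells (ratio 2.93). Ccr2, an inflammatory homing receptor, stood at 182 CPM in members and 50.5 CPM in other cells (ratio 3.60, interval 2.68 to 4.87). Ly6c2 stood at 1406 CPM in members and 690 CPM in other cells. Tbx21, the gene of the Th1 factor T-bet, and Cxcr6, a tissue homing receptor, stayed under 2-fold, with ratios of 1.55 and 1.86.

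The S100, annexin and galectin list was shifted upward in members, mostly by less than 2-fold. Of 14 measured genes 4 were past 2-fold higher, none lower, and 13 had a positive log2 ratio. Lgals1, a secreted galectin, stood at 3562 CPM in members and 1112 CPM in other cells (ratio 3.20, interval 3.01 to 3.41). Lgals3 stood at 397 CPM in members and 111 CPM in other cells (ratio 3.57), and Anxa1 and Anxa2 had ratios of 2.26 and 2.27. S100a4 and S100a6 were short of 2-fold, with log2 ratios of 0.75 and 0.76.

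Most measured genes of the follicular helper (Tfh) list were lower in members. Of 9 such genes 6 were past 2-fold lower and none higher, with a median log2 ratio of -1.25. Tnfsf8, the ligand of CD30, stood at 94.1 CPM in members and 332 CPM in other cells (ratio 0.283, interval 0.218 to 0.363). Slamf6, an adhesion receptor of stem-like and helper cells, stood at 56.7 CPM in members and 187 CPM in other cells. Izumo1r, the folate receptor FR4, stood at 81.2 CPM in members and 192 CPM in other cells. The inhibitory receptor Pdcd1 (PD-1), part of the same list, was nearly level at 117 and 126 CPM in members and other cells. The defining Tfh genes Cxcr5 and Bcl6 had fewer than 50 UMIs in this library.

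Of 13 measured memory and homing genes, 4 were past 2-fold lower, none higher and 9 within 2-fold. Ccr7, the receptor that guides cells into lymph nodes, stood at 40.0 CPM in members and 179 CPM in other cells (ratio 0.224, interval 0.149 to 0.326). Tcf7, the gene of the memory factor TCF-1, stood at 56.7 CPM in members and 136 CPM in other cells (ratio 0.416). Klf2 and Lef1, also on this list, were level, with log2 ratios of 0.0063 and -0.080. Bcl2, a survival gene, stood at 104 CPM in members and 156 CPM in other cells, under 2-fold. Of 9 measured apoptosis and survival genes the death inducers Bcl2l11 and Bbc3 were past 2-fold higher in members, with ratios of 2.22 and 2.09.

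Lineage genes differed less. Of 4 measured CD8 lineage genes none was past 2-fold higher. Eomes, a T-box factor of cytotoxic and memory cells, was past 2-fold lower, at 34.8 CPM in members and 87.1 CPM in other cells (ratio 0.399, interval 0.253 to 0.611). Runx3, the factor of the CD8 lineage, stood at 248 CPM in members and 163 CPM in other cells (ratio 1.52). Cd8b1 stood at 42.5 CPM in members and 32.2 CPM in other cells (ratio 1.32, interval 0.815 to 2.12), and Cd4 at 117 and 131 CPM (ratio 0.895, interval 0.688 to 1.16). By transcripts, 61 members had a Cd4 and no Cd8 UMI, 26 a Cd8 and no Cd4 UMI, 9 had both and 200 neither. The first 3 are 20.6%, 8.78% and 3.04% of members, against 26.4%, 6.36% and 2.95% of other cells, with overlapping intervals. Of 8 measured helper genes, Tnfrsf4, the gene of the costimulatory receptor Ox40 whose promoter drives the Cre, was past 2-fold lower, at 40.0 CPM in members and 99.6 CPM in other cells.

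Other lists gave smaller or no differences. None of 9 early response genes of the T cell receptor and none of 15 genes of its signalling was past 2-fold, with median log2 ratios of -0.016 and 0.18. Of 5 measured genes of the inhibitory receptor list Cd200, which encodes a ligand and not a receptor, was past 2-fold lower, and 4 were within 2-fold. Of 5 regulatory T cell genes Ikzf2 was past 2-fold lower, at 83.8 CPM in members and 256 CPM in other cells. Of 8 interferon response genes Gbp2, and of 13 stress genes Hspa1a and Hspa1b, were past 2-fold lower. All 100 measured ribosomal protein genes were within 2-fold, with a median log2 ratio of -0.30 and 5 of 100 above 0. None of 8 genes of Th2 and Th17 cells reached 50 UMIs.

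Nrn1, Penk and C2cd4b, a neuritin, an enkephalin precursor and a nuclear factor of vessel cells, were all lower in members. Their ratios were 0.365, 0.352 and 0.212. A UMI of any of the 3 was seen in 15 of 296 members (5.07%) and 93 of 440 other cells (21.1%).

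Cell cycle transcripts were higher in the summed counts, to an extent that varied with the cells and depth used. Of 14 measured cell cycle genes 8 were past 2-fold higher and none lower, with a median log2 ratio of 1.25. Stmn1, a microtubule regulator of dividing cells, stood at 257 CPM in members and 83.5 CPM in other cells (ratio 3.07, interval 2.43 to 3.90), and Top2a, a replication topoisomerase, at 91.5 and 32.2 CPM. Cells with 5 or more UMIs of the list were 19.9% of members and 22.3% of other cells. This cut was not scaled to depth. The list also includes Hmgb2 and Tubb5, seen in 64.6% and 63.1% of members with 1 granzyme UMI, so these shares do not count dividing cells. With the cells above the 95th percentile of UMIs left out, 5 genes of the list were measured and 1 was past 2-fold higher. Thinned to 1000 UMIs, it was 1 of 4. By the mean of each cell's CPM 7 of 14 were past 2-fold higher, and with 1000 or more genes per cell 10 of 14. Birc5, a mitosis gene with a log2 ratio of 1.75, had -0.28 after thinning, and Rrm2, of nucleotide synthesis, had 1.28 before and -0.00693 after it.

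Outside the lists, the leading genes higher in members included the chromosome 19 neighbours Borcs7 and As3mt. Borcs7, a subunit of a lysosome positioning complex, stood at 63.2 CPM in members and 16.1 CPM in other cells (ratio 3.92, interval 2.33 to 6.81). As3mt, an arsenic methyltransferase, stood at 77.3 CPM in members and 21.2 CPM in other cells (ratio 3.64, interval 2.30 to 5.89). Kcnj8, a potassium channel subunit, and Plek, a substrate of protein kinase C, had ratios of 3.31 and 2.36, and the remaining leading genes were Hist1h2ap, Hist1h2al, Cd48, Snx10, Cks2, Insl6, Fgl2 and Txndc5. The 2 histone genes belong to a family of near-identical copies, so their values are uncertain. On the lower side, Cd81, a tetraspanin, stood at 5.16 CPM in members and 55.6 CPM in other cells (ratio 0.0927, interval 0.0246 to 0.247). Cd83, an activation marker, stood at 15.5 CPM in members and 113 CPM in other cells (ratio 0.137). Marcksl1, Ramp1, Rgs10, Smco4, Capg, Zbtb20, Socs3, Ass1, Casp4 and Nt5e completed the lower side, with ratios of 0.207 for Marcksl1 to 0.446 for Socs3.

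Markers of other cells were sparse. T cell transcripts were level, with log2 ratios of 0.049, 0.11 and 0.15 for Cd3d, Cd3e and Cd3g. Of the natural killer markers Ncr1 was at 0 in both classes, Klre1 had 28 UMIs in members and 5 in other cells, and Tyrobp had 14 and 2. The gamma delta gene Sox13, the NKT factor Zbtb16 and the B cell genes Cd79a and Ms4a1 were at 0 in both classes. The B cell list summed to 25.8 CPM in members and 79.1 CPM in other cells, mostly Cd74, and the myeloid list to 157 and 109 CPM, mostly Cst3. The natural killer list without Gzma summed to 72.2 CPM in members and 12.4 CPM in other cells, in the direction of the lectin receptors and Klrg1. Haemoglobin genes appeared far lower in members since 12831 of their UMIs lay in 1 other cell of 14031 UMIs. Without the 2 cells with 100 or more haemoglobin UMIs, 96 genes were past 2-fold higher and 78 lower in members. The part of these markers in the other differences was not tested.

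**Figure D3:**
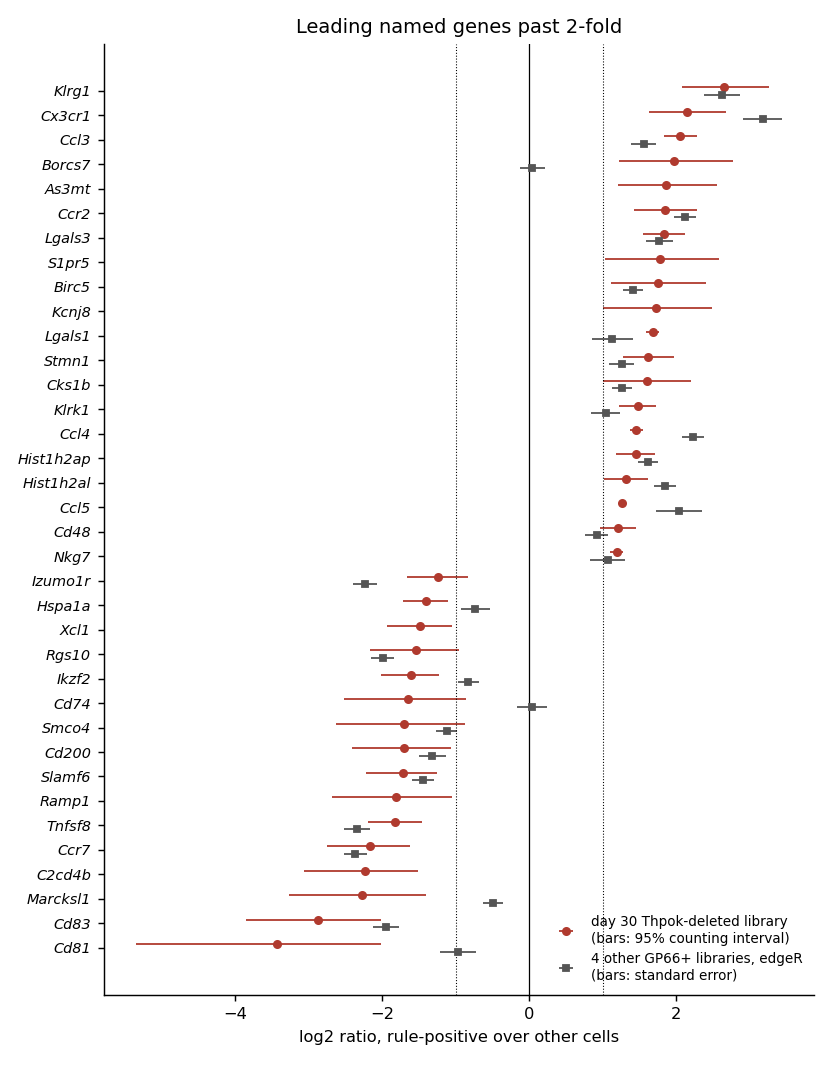
Log2 ratio of members over other cells (x axis) for leading named genes past 2-fold (y axis) in the Thpok-deleted library of day 30, as red circles with 95% counting intervals. Grey squares give the edgeR log2 fold change of rule-positive over other cells in the 4 other GP66+ libraries with its standard error, where the gene was tested, dotted lines are 2-fold, and Klrg1 stands at 2.65 and 2.62, and Borcs7 at 1.97 and 0.044.

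The members differed among themselves between classes of granzyme content, which is described without a test since the rule used it. Tnfsf8 had 2 UMIs in the 165 members with 5 or more granzyme UMIs and 1 UMI in the 66 with 2 to 4, both under the floor of 3 counts. It had 70 UMIs (364 CPM) in the 65 members with 1, where 9 cells carried them all. The 265 cells with neither transcript held it at 404 CPM, in 74 cells. Izumo1r stood at 28.4, 18.5 and 250 CPM in members with 5 or more, 2 to 4 and 1 granzyme UMIs, and at 260 CPM in cells with neither transcript. Ccr7 had 6, 2 and 23 UMIs in the same 3 classes of members. The UMIs of members with 1 granzyme UMI lay in few cells, 9 for Izumo1r and 6 for Ccr7, so most of these members had none of either transcript. Members with 1 granzyme UMI held a median of 2727 UMIs, against 1911 in members with 5 or more granzyme UMIs.

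Effector genes were graded more evenly. Klrg1 stood at 225 CPM in members with 5 or more granzyme UMIs, 80.4 CPM in those with 2 to 4 and 31.2 CPM in those with 1, against 21.5 CPM in cells with neither transcript. Ccl3 stood at 1062, 439 and 208 CPM in the same 3 classes of members, against 162 CPM in cells with neither transcript. Lgals1 stood at 4769, 2726 and 1614 CPM, against 879 CPM. Id2 varied less across the members, at 1251, 1181 and 995 CPM, and stood at 545 CPM in cells with neither transcript. With 2 or more granzyme UMIs required, 130 genes were past 2-fold higher and 124 lower.

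The 60 granzyme-positive cells with Il7r differed from members in several named genes. Ccl4 stood at 2192 CPM in them and Lgals1 at 2109 CPM, each between the levels of members and of cells with neither transcript. Gzmm did not lie between, at 131 CPM in these cells, against 24.5 CPM in members and 41.7 CPM in cells with neither transcript. Eomes was highest in the cells with neither transcript, at 121 CPM, against 34.8 CPM in members, 39.3 CPM in granzyme-positive Il7r-positive cells and 50.7 CPM in cells with Il7r alone. Xcl1 had the same order at its top, at 269 CPM in cells with neither transcript and 68.3 CPM in members.

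**Figure D4:**
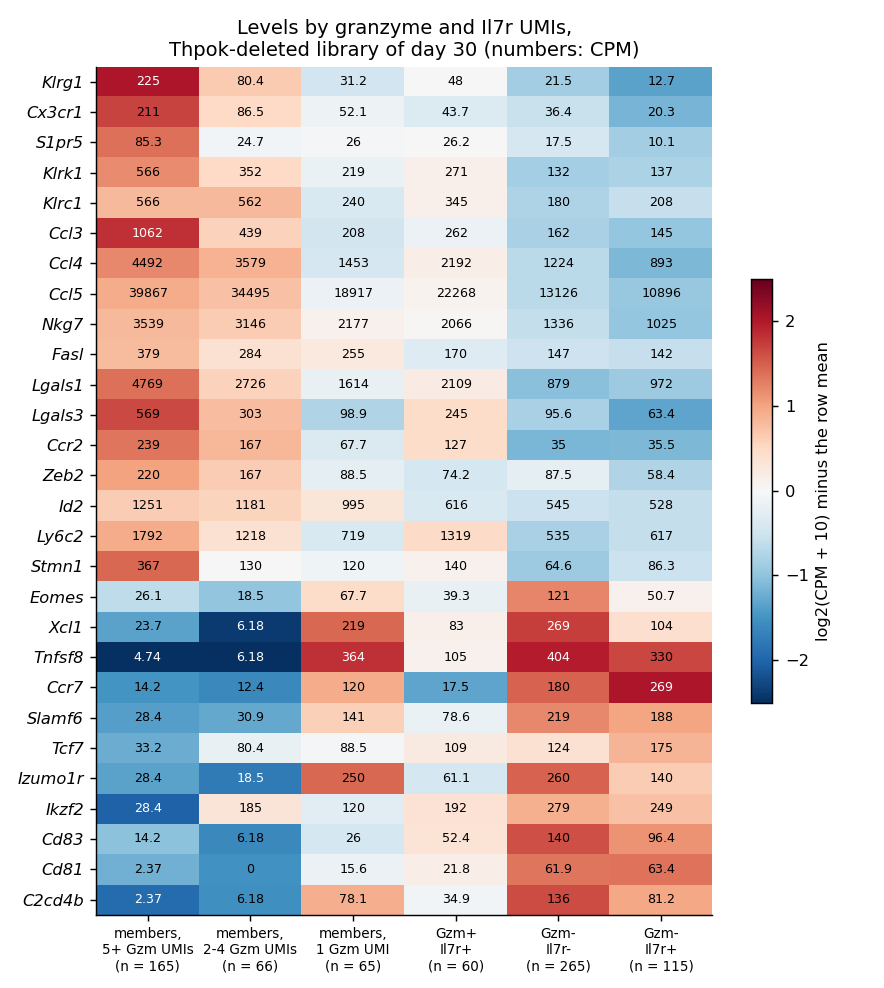
Levels of 28 genes (rows) in 6 classes of cells of the Thpok-deleted library of day 30 (columns), split by granzyme (Gzm) and Il7r UMIs, with CPM of summed UMIs as numbers and log2(CPM + 10) minus the row mean as colour. Klrg1 stands at 225, 80.4 and 31.2 CPM in members with 5 or more, 2 to 4 and 1 granzyme UMIs, while Tnfsf8 rests on 2, 1 and 70 UMIs there.

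Among members, those with a Klrg1 UMI (76 cells) and without (220 cells) had similar depth, with medians of 2172.5 and 2051.5 UMIs. Members with Klrg1 held Lgals1 at 5043 CPM, and members without it at 2961 CPM. Klrk1 stood at 215 CPM in members with Gzmb and no Gzma and at 455 CPM in members with Gzma and no Gzmb. Granzyme content also differed between these classes, with medians of 2 and 4 granzyme UMIs. Members with 1 granzyme UMI held Klrk1 at 219 CPM, and the part of granzyme content was not tested. Top2a had 30 UMIs in 9 cells of the class with Gzmb alone and 1 UMI in the class with Gzma alone. Members with a Cd8 and no Cd4 UMI held Ccl4 at 2078 CPM and Ikzf2 at 115 CPM. Members with a Cd4 and no Cd8 UMI held Ccl4 at 3544 CPM and Ikzf2 at 161 CPM.

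Whether the same differences accompany granzymes in other GP66+ cells was asked in the 4 libraries that the choice of members did not use. Each was split by the same rule, summed by class and tested with edgeR's quasi-likelihood test with the library as block and Benjamini-Hochberg adjustment. Of 8570 genes, 915 were higher (10.7%) and 869 lower (10.1%) in rule-positive cells at an adjusted p of 0.05. Of the 99 genes past 2-fold higher in members 93 could be tested, and 69 of them (74.2%) were higher and none lower. Of the 80 genes past 2-fold lower in members 67 could be tested, and 45 of them (67.2%) were lower and 2 higher. The shared genes are 7.54% of the 915 and 5.18% of the 869.

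These counts rest in part on single libraries. Without the wild type library edgeR called 353 genes higher and 231 lower, and 43 of 94 and 30 of 65 member genes in the matching direction. Without the Thpok-sufficient library of day 7 it called 393 and 255, and 48 of 94 and 34 of 67. DESeq2 called 415 and 357, and 45 of 93 and 33 of 67. Thinned to 1000 UMIs, edgeR called 140 and 64, and 34 of 82 and 14 of 54, and without the library as block it called none at the adjusted threshold, against 502 and 646 at an unadjusted p under 0.05. With the library as block, these p-values rest on counting error and on variation among the libraries that is estimated largely over all genes together. With 3 residual degrees of freedom, a small p-value does not show that a gene differed to a like extent in each library. The variation among libraries can be technical, and the libraries differ in genotype and day, so they are not replicates of a single condition. Rule-positive cells held more UMIs than the rest in the 3 libraries of day 7 (medians of 6011, 6090.5 and 6536.5, against 5428, 5168 and 5450) and fewer in the Thpok-deleted library of day 30, and the part of depth in the calls was not tested beyond thinning.

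Klrg1 was higher in rule-positive cells of the 3 libraries of day 7. It stood at 82.6 CPM in rule-positive and 28.7 CPM in other Thpok-deleted cells of day 7, at 20.2 and 0.975 CPM in Thpok-sufficient and at 8.43 and 0.344 CPM in wild type cells of day 7. The 5 rule-positive Thpok-sufficient cells of day 30 held none, and the other cells of that library 1.95 CPM. Its log2 fold change was 2.62 ± 0.24 (SE; edgeR adjusted p = 6.44e-25). Cx3cr1 (3.17 ± 0.27), Ccl4 (2.23 ± 0.15), Ccr2 (2.12 ± 0.15), Lgals3 (1.77 ± 0.18) and Klrk1 (1.04 ± 0.20) rose as well, with edgeR adjusted p-values of 6.67e-30, 7.86e-45, 1.90e-40, 9.87e-20 and 2.08e-06. Klrk1 and Lgals3 were higher in rule-positive cells of each of the 3 libraries of day 7. In the Thpok-sufficient library of day 30 the rule-positive class is 5 cells with 11894 UMIs, of which 4 were Klrk1 and 4 Lgals3, so its direction carries little weight.

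Ccr7 fell in rule-positive cells, with a log2 fold change of -2.37 ± 0.16 (SE; edgeR adjusted p = 1.55e-47), and was lower in each of the 3 libraries of day 7. Tnfsf8 (-2.34 ± 0.17), Tcf7 (-2.00 ± 0.16) and Cd83 (-1.95 ± 0.18) fell too, with edgeR adjusted p-values of 4.06e-39, 2.71e-34 and 2.87e-24. By lists, 20 of 20 tested cell cycle genes, 17 of 29 effector factors and receptors, 8 of 15 granule genes and 5 of 6 lectin receptors were higher. Of 16 Tfh genes 15 and of 17 memory and homing genes 13 were lower. In the effector list 2 genes and in the granule list 2 genes were lower. Other lists were mixed, with 4 of 14 chemokine and cytokine genes higher and 6 lower, and 1 of 4 CD8 lineage genes higher and 2 lower. Of 6 regulatory T cell genes 3 were higher and 2 lower, and of 11 early response genes 6 were lower and none higher.

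Some leading genes of the members had no counterpart. Borcs7 had a log2 fold change of 0.044 ± 0.17 (edgeR adjusted p = 0.902) and Snx10 of 0.11 ± 0.15 (edgeR adjusted p = 0.647) in the other libraries. Capg, lower in members, had 0.25 ± 0.13 (edgeR adjusted p = 0.192). Gzmm and Rgs16, lower in members, were higher in rule-positive cells of the other libraries (0.73 ± 0.22 and 0.65 ± 0.15, edgeR adjusted p = 0.00641 and 9.84e-05). Gzmm was not higher in every library, since it stood at 45.0 CPM in rule-positive and 72.5 CPM in other Thpok-deleted cells of day 7. Without the Thpok-sufficient library of day 7 its log2 fold change was -0.17 (edgeR adjusted p = 0.835). DESeq2 called neither of them. Eomes, Xcl1, C2cd4b, S1pr5 and As3mt were too low there to be tested. Whether the members differ from rule-positive cells of the other libraries in these genes was not tested.

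Set beside rule-positive Thpok-deleted cells of day 7, the members carried more chemokine and less cell cycle transcript. Ccl4 stood at 3549 CPM in members and 391 CPM in the 1096 rule-positive cells of day 7, Ccl3 at 721 and 71.6 CPM, Fasl at 329 and 83.0 CPM, and Klrk1 at 436 and 81.2 CPM. The cell cycle list summed to 2790 CPM in members and 7599 CPM at day 7, and Lgals1 stood at 3562 and 5408 CPM. The cells outside the rule had the same order for Ccl4, at 1291 CPM at day 30 and 201 CPM at day 7 in Thpok-deleted cells. The other 440 cells of the members' library also stood above the 720 Thpok-sufficient cells of day 30 that did not meet the rule, with Ccl4 at 1291 and 53.9 CPM and Nkg7 at 1368 and 294 CPM. With 1 library per genotype and day, library and condition cannot be told apart and none of these differences was tested.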

How the data were processed

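The authors deposited unnormalized counts of UMIs for every gene in every barcode. Libraries used 10x 3' v2 chemistry (labels' protocols). The submitters' processing notes name Cell Ranger, bcl2fastq 2.17 and mm10, without a version for the first. Each file lists 27998 genes and all barcodes, empty droplets included. T cell receptor constant genes were not analysed here.

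The members and gene lists were chosen with earlier results of these data known. Cells needed 500 genes and at most 10% mitochondrial UMIs, and the 7 libraries hold 1551772 to 33223809 UMIs in such cells. UMIs were summed per class and scaled to CPM. Ratio intervals are conditional exact binomial intervals, share intervals are exact (Clopper-Pearson) and all cover counting error only at the 95% level. Between 1 and 2 cell barcodes of the members' library recur in each other library. No doublet caller was run, and cells above the 95th UMI percentile were left out as an alternative.

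The 4 other GP66+ libraries were fitted with edgeR 4.0.16 in R 4.3.3 (quasi-likelihood test, TMM, filterByExpr, library as block since both classes share a capture, 3 residual degrees of freedom, biological coefficient of variation 0.106). On simulated counts for 8345 genes the fit recovered 100 of 100 genes changed 2-fold with 5 false calls. The changed genes were drawn from those above the median of summed counts. All simulated libraries shared the same mean levels and the same dispersion. The simulation therefore cannot show how the fit deals with differences between the real libraries or with low counts. DESeq2 1.42.0 was an alternative. A standard error is the size of the log2 fold change divided by the square root of F. Named genes are Gzma, Gzmb, Il7r, Ccl4, Klrk1 and Zbtb7b, up to 4 genes per list by UMIs, those past 2-fold first, and up to 12 leading genes per direction outside the lists with 50 or more CPM in the higher class. Of 140 genes with values in the tables, 121 follow this rule and the others were added after their values were seen, as were list members named for a count. Positions are from GENCODE vM21 on GRCm38. No test was run within the members' library.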

Additional observations from a re-analysis of the deposited data

How the results depend on the processing

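The number of members was 129 with 1000 or more genes per cell and stayed within 1.5 times of 296 (214 to 356) under the other settings. Genes higher in members numbered 57 of 1895 measured genes with cells thinned to 1000 UMIs and 281 with 20 or more UMIs per gene. Genes lower numbered 124 with 2 or more granzyme UMIs, 139 with members defined by a Gzma UMI whatever their Gzmb (214 cells) and 277 with 20 or more UMIs per gene. The direction of Hbb-bt turned with 1000 or more genes per cell (0.63) and without the haemoglobin cells (0.38, Hba-a1 0.015), a setting added after the data were seen. Hist1h2ap turned without the cells above the 95th UMI percentile (-0.060), Rrm2 (-0.00693) and Birc5 (-0.28) after thinning, and Gzmm without the condition on Il7r (0.065), all as log2 ratios. Over the alternatives of single genes, 1090 values stayed within the counting interval, 200 moved and 7 turned. The cause was not tested.

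In the other GP66+ libraries, edgeR without the replicate block, that is, without pairing the classes of a library, called 0 genes higher and 0 lower, although 502 and 646 had an unadjusted p under 0.05. With the block, DESeq2 called 415 and 357, and edgeR after thinning 140 and 64. Leaving out 1 library at a time gave 353 to 1224 higher and 231 to 1138 lower genes. H2-Aa turned with DESeq2 (-0.37), without the block (-0.21) and without the wild type library (-0.90, range -0.90 to 1.94 over the libraries left out). Pdcd1 turned after thinning (0.11), and Gzmm without the Thpok-sufficient library of day 7 (-0.17, range -0.17 to 0.73). Of the named genes' values, 842 kept their call, 186 lost it, 28 gained one and 5 turned.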
